A study of Homo sapiens with 40 samples.

Results

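Interferon response genes are transcribed when a cell senses interferon, the secreted alarm signal of viral infection. They were examined here by listed symbol: 46 genes, each with 1 row among the 62754 rows in each of the 3 count tables of the study, and all 46 were found. The study asked what loss of QKI (quaking, an RNA-binding protein that acts in splicing) does in T-ALL (T-cell acute lymphoblastic leukaemia, a malignancy of T-cell precursors), with RNA-seq of human lines. There were 40 libraries in 10 groups of 4. Jurkat cells were electroporated with QKI siRNA, against a non-targeting control (NTC) siRNA. The columns of that control are headed shNTC and were matched to the NTC siRNA libraries, the one control Jurkat has. Cells labelled HPB-ALL were infected by centrifugation with virus coding for QKI shRNA, against virus coding for NTC shRNA. The other 6 groups were untreated T-ALL lines, named TALL-1, LOUCY, ALL-SIL, HPB-ALL, DND-41 and KARPAS-45. Serum made up 20% of the medium of KARPAS-45 and of HPB-ALL, and 10% elsewhere. RNA is labelled total RNA for Jurkat and polyadenylated RNA for the others. The knockdowns are described as 4 biological replicates. Nothing states that the replicates of an untreated line were separate cultures, so p-values between lines measure only the spread between these libraries, which may be technical.

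Type I interferon binds a receptor built of IFNAR1 and IFNAR2, whose kinases JAK1 and TYK2 start a signal that reaches the nucleus through STAT2. With IRF9, STAT2 acts at the interferon-stimulated response element, a promoter sequence with a repeated GAAA core, which switches on genes that degrade foreign RNA, block translation, trap virus particles and tag proteins with ISG15. The same genes keep a resting level without infection, which differs between cell types and between cell lines.

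The promoters below are examples picked among those of members that hold letters like that core. ISG15, the first, was not shown to change in either knockdown. The motif searched was GAAANNGAAA on either strand (TTTCNNTTTC when read on the other), where N is any base, and matches may overlap. In windows of 250 bases before to 50 bases after the start site, 24 of the 37 members with a RefSeq window held at least 1 match (64.9%), against 1195 of 27305 genes with a window (4.38%). The 160 bases before the start site are shown 5′ to 3′ in the direction of the gene, on RefSeq's GRCh38.p14, with motif matches in capitals. ISG15 and HERC5 belong to the ISG15 tagging pathway and hold overlapping matches, SAMD9 holds a single match and IFIT1 a close pair. IFITM1 holds 1 match wholly before the start site and 1 that runs across it, which is not in capitals. OAS3 and LGALS3BP are shown because they were higher in QKI-depleted cells labelled HPB-ALL, where SAMD9, IFIT1 and IFITM1 were lower.
ISG15, chr1:1013337-1013496, plus strand: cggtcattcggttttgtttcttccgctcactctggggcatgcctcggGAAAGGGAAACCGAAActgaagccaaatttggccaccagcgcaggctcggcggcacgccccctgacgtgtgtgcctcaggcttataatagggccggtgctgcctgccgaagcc
HERC5, chr4:88456959-88457118, plus strand: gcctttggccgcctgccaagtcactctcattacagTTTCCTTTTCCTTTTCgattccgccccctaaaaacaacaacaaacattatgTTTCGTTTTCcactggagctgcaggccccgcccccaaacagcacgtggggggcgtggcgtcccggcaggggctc
SAMD9, chr7:93117980-93118139, minus strand: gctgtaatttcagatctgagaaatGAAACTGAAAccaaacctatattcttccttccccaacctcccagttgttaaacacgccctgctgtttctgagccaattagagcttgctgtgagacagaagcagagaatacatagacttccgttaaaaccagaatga
IFIT1, chr10:89392463-89392622, plus strand: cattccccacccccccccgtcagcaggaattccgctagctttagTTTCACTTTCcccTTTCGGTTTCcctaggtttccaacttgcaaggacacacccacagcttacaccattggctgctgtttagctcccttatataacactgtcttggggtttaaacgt
IFITM1, chr11:313880-314039, plus strand: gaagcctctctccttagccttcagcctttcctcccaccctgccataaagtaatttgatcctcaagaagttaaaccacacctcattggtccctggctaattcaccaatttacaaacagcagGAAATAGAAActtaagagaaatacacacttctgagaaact
OAS3, chr12:112938314-112938473, plus strand: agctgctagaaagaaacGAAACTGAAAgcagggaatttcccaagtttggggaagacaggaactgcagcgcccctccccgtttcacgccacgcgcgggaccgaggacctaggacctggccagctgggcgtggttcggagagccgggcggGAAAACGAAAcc
LGALS3BP, chr17:78979924-78980083, minus strand: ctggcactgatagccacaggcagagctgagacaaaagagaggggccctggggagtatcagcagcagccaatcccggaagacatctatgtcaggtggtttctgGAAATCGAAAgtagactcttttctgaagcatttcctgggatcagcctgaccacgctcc
A match is a description of the letters and not a measured binding site. The window of SAMD9L, a neighbour of SAMD9 on chromosome 7, held no match. IRF7, MX2, OAS2, OASL, IFIT2, IFITM2, DHX58, USP18 and TRIM22 are named without a window.

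In units of 1000000 counts, the depth per library was 68.4 to 115.7 for QKI siRNA and 103.8 to 134.2 for NTC siRNA in Jurkat, 119.8 to 134.9 for QKI shRNA and 81.0 to 127.1 for NTC shRNA in the libraries labelled HPB-ALL, and 44.1 to 84 in the untreated lines. QKI averaged 21.5 ± 4.22 CPM (counts per 1000000 counts; SD, n = 4) with QKI siRNA and 148 ± 19.5 CPM with NTC siRNA in Jurkat (log2 fold change -2.79, SE 0.17, adjusted p = 0.000129, edgeR). In the libraries labelled HPB-ALL it averaged 55.8 ± 1.42 CPM with QKI shRNA and 104 ± 2.58 CPM with NTC shRNA (log2 fold change -0.90, SE 0.03, adjusted p = 1.1e-07, edgeR), a far smaller depletion. The labelled cell type was checked with 11 T-cell genes. Their summed level was 1766 to 5312 CPM in Jurkat and the untreated lines, but 1.45 to 1.58 CPM with QKI shRNA and 1.53 to 1.66 CPM with NTC shRNA in the libraries labelled HPB-ALL, where 0 of 11 averaged 1 CPM or more and LCK and CD5 had no count in the NTC shRNA libraries. The 12 myeloid genes summed there to 2980 to 3112 CPM with QKI shRNA and 3415 to 3575 CPM with NTC shRNA, with ELANE, a neutrophil granule protease, at 1714 CPM on average with QKI shRNA and 1650 CPM with NTC shRNA, against sums of 15.1 to 34.7 CPM in untreated HPB-ALL. These libraries therefore go against their cell-line label, and the text keeps the word labelled for them. Levels in different tables rest on separate normalizations.

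Every group held a broad level of interferon response genes. The knockdown groups, controls included, were electroporated or infected with virus, so their levels need not be resting ones. Between 30 (KARPAS-45) and 44 (DND-41) of the 46 members reached 1 CPM in all 4 libraries. The median member averaged 14.5 CPM with QKI siRNA and 14.6 CPM with NTC siRNA in Jurkat, 9.59 CPM with QKI shRNA and 11.1 CPM with NTC shRNA in the libraries labelled HPB-ALL, and 4.13 CPM in KARPAS-45, 13.2 CPM in HPB-ALL, 13.9 CPM in TALL-1, 19.8 CPM in LOUCY, 26.8 CPM in ALL-SIL and 41.1 CPM in DND-41. IFI44 and IFI44L, cytoplasmic proteins named for induction by interferon, had no count with QKI shRNA, IFI44L and OAS1 had none in KARPAS-45, and IFI44L had none in ALL-SIL. A count of 0 allows up to 0.0251 CPM, 0.0460 CPM and 0.0653 CPM per library in those groups, counting error only. With NTC shRNA, IFI44 had 2 reads and IFI44L had 3 reads over the 4 libraries, so both genes were nearly absent from the control as well.

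**Figure D1:**
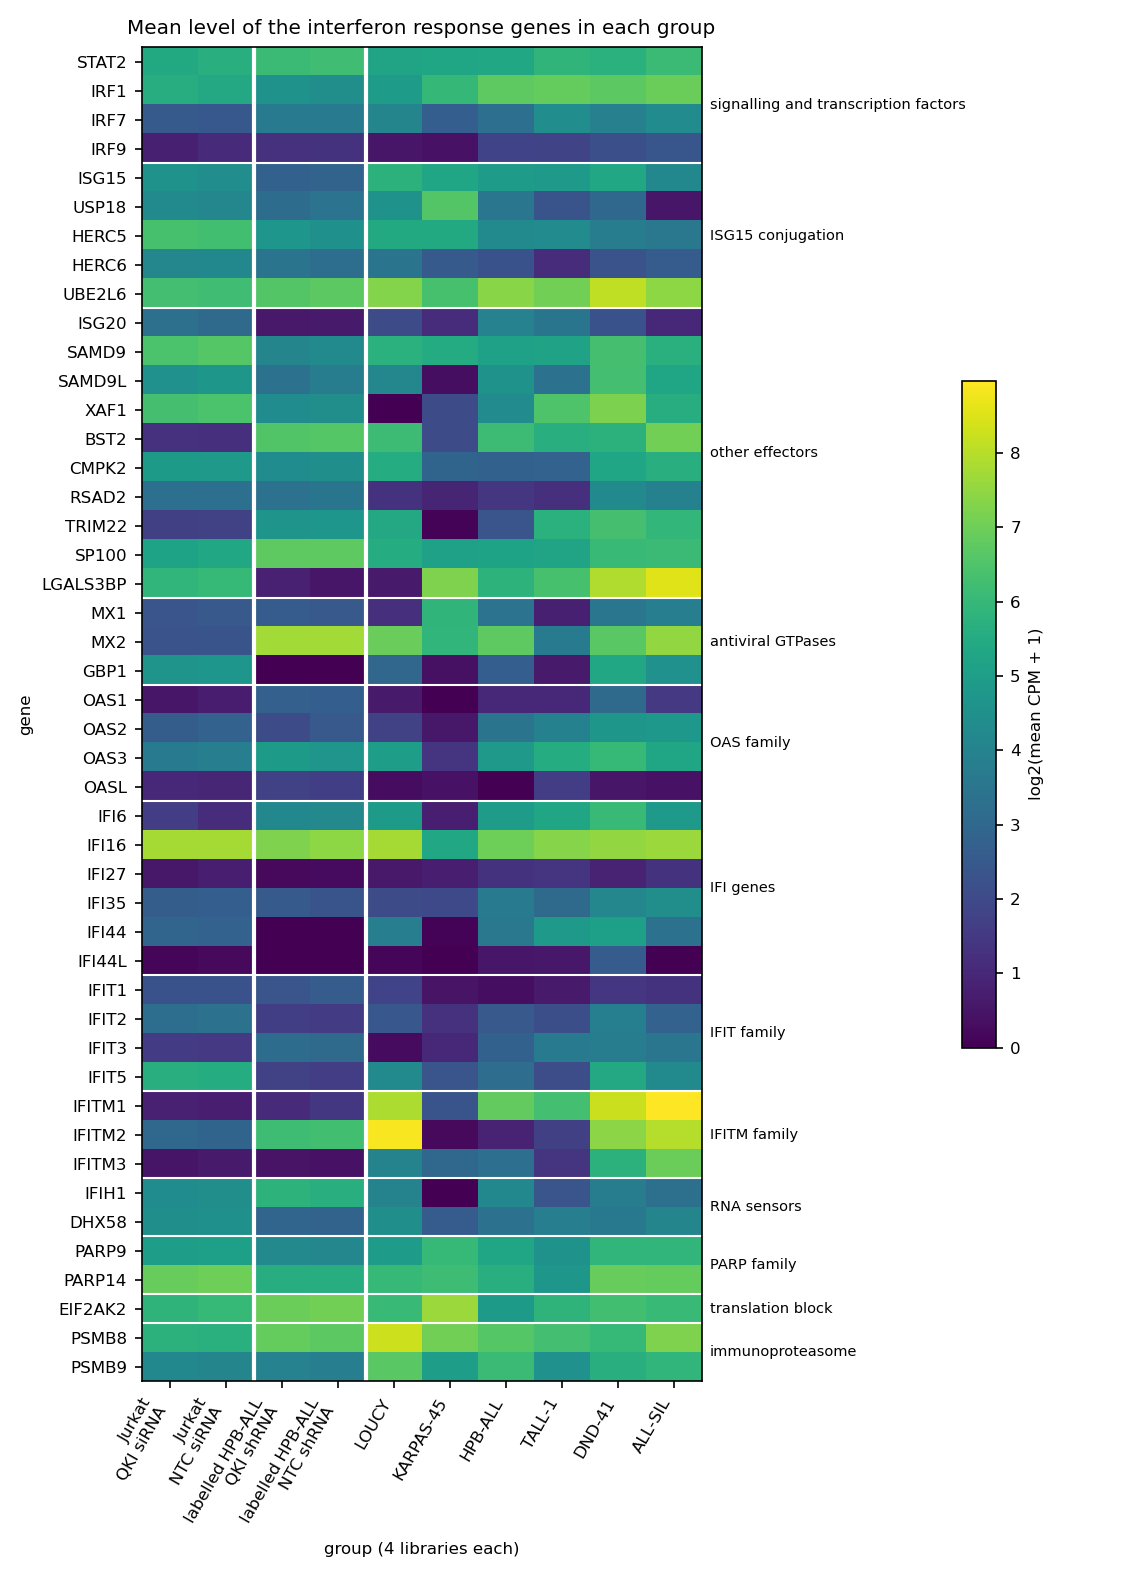
Heat map of log2(mean CPM + 1) for the 46 interferon response genes, ordered by role down the page, in the 10 groups across it, 4 libraries a group. Colour runs from dark purple (low) to yellow (high). Among the untreated lines the KARPAS-45 column is the darkest (median member 4.13 CPM) and the DND-41 column the brightest (41.1 CPM).

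Per length of exons, so that genes can be set against each other, the leading member differed between cell types, with IFITM1 first in 4 of the untreated lines. The length joins the exons of all transcripts of a gene, from 865 bases for IFI6 to 13047 bases for MX2. Levels per kb are thus not per transcript, and ranks between genes are approximate. IFI16, a nuclear DNA sensor, led in Jurkat with 40.9 CPM per kb with QKI siRNA and 41.2 CPM per kb with NTC siRNA. BST2, the tetherin that holds budding virus to the cell surface, led in the libraries labelled HPB-ALL with 81.6 CPM per kb with QKI shRNA and 85.6 CPM per kb with NTC shRNA. IFITM1, a membrane protein that hinders virus entry, led in ALL-SIL (465 CPM per kb), DND-41 (285), HPB-ALL (104) and TALL-1 (72.5). Its neighbour IFITM2 led in LOUCY with 309.8 CPM per kb. PSMB8, a catalytic subunit of the immunoproteasome, came first in KARPAS-45 with 44.4 CPM per kb, close to USP18 (44.0), LGALS3BP (41.9) and ISG15 (41.6). IFITM1 and IFITM2 share exon bases on 1 strand in GENCODE 29, while PSMB8 and PSMB9 share some on opposite strands, as do CMPK2 and RSAD2. IFITM1, IFITM2 and IFITM3 are also close in sequence, so reads can be split among them. In all, 18 members share exon bases with another gene, and the sources used here do not give how such reads were counted, so their levels are uncertain to that extent.

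The interferons themselves were almost unread. Of 21 interferon genes, IFNL1, a type III interferon, was the single one to average 1 CPM in any group (1.71 CPM in ALL-SIL). IFNB1, a type I interferon made by many cell types, was highest in DND-41 (0.161 CPM), where no interferon gene passed 0.272 CPM in a single library. Their sum stayed at or below 0.054 CPM with QKI siRNA and 0.0998 CPM with NTC siRNA in Jurkat, and at or below 0.0444 CPM with QKI shRNA and 0.0252 CPM with NTC shRNA in the libraries labelled HPB-ALL. Most of the receiving side was present, with 5 or 6 of the 6 receptor genes averaging at least 1 CPM in every group. Of the 6, IFNLR1 had no count in ALL-SIL, where IFNL1 was read, nor in TALL-1, DND-41 or either group labelled HPB-ALL.

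With QKI depleted in the libraries labelled HPB-ALL, interferon response genes moved both ways and by little. Of the 43 members that passed the filter on low counts (IFI44, IFI44L and GBP1 did not), 6 rose (14.0%) and 9 fell (20.9%) at an adjusted p under 0.05 in edgeR, while over all 17974 genes tested 12.8% rose and 10.4% fell. The median log2 fold change was -0.01 over the members and -0.01 over all genes. IFITM1, OAS2, SAMD9L and IFIT1 fell by more than 0.3 on the log2 scale and LGALS3BP rose by more than that. On GRCh38 in GENCODE 29, IFITM1 lies at chr11:313506-315272, OAS2 at chr12:112978395-113011723, SAMD9L at chr7:93130055-93148369, IFIT1 at chr10:89392546-89406486 and LGALS3BP at chr17:78971238-78980109. Every QKI shRNA library lay below every NTC shRNA library for 9 members (20.9%, against 11.7% of all genes), and above it for 5 (11.6%, against 14.5%). As these are bulk samples, fewer cells of a type and less RNA per cell cannot be told apart. The myeloid genes moved in the same comparison, with 6 of 11 tested lower and 0 higher (median log2 fold change -0.17), LYZ at 462 CPM with QKI shRNA and 758 CPM with NTC shRNA, and 3 of 5 B-cell genes tested were lower. Their part in the changes of interferon response genes was not tested.

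Among the effectors that act on RNA, OAS2, an oligoadenylate synthetase that switches on RNase L when it meets double-stranded RNA, had 2.87, 3.29, 3.58 and 3.37 CPM with QKI shRNA and 4.68, 5.03, 4.5 and 4.57 CPM with NTC shRNA. All QKI shRNA libraries were below all controls (log2 fold change -0.52, SE 0.08, adjusted p = 0.000601, edgeR). OAS3, the largest enzyme of the same family, differed in the other direction (log2 fold change 0.24, SE 0.05, adjusted p = 0.00567, edgeR), with 29 ± 1.81 CPM with QKI shRNA and 24.6 ± 0.953 CPM with NTC shRNA (SD, n = 4 each). OAS1 (log2 fold change 0.08) and OASL (0.17), a relative without enzyme activity, did not pass. IFIT1, which binds foreign RNA that lacks the cap methylation of host messages, had 3.73, 4.54, 4.04 and 4.13 CPM with QKI shRNA and 5.29, 5.32, 5.27 and 4.69 CPM with NTC shRNA. The groups did not overlap (log2 fold change -0.33, SE 0.07, adjusted p = 0.00708, edgeR), although the lowest control, replicate 4, lay close to the highest QKI shRNA library. IFIT2, IFIT3 and IFIT5, its relatives, had log2 fold changes of 0.14, 0.08 and 0.12 and were not called.

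Among membrane and entry factors, IFITM1 was read at 0.886, 1.21, 1.26 and 1.02 CPM with QKI shRNA and 1.48, 1.49, 1.63 and 2.34 CPM with NTC shRNA. The groups did not overlap, and 1 control library stood above the other 3 (log2 fold change -0.64, SE 0.16, adjusted p = 0.0122, edgeR). IFITM2 and IFITM3, its close relatives, averaged 71.2 and 0.392 CPM with QKI shRNA, against 75.9 and 0.346 CPM with NTC shRNA, and were not called. BST2 had a log2 fold change of -0.07 and was not called either.

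SAMD9L, an antiviral and growth-restraining protein, fell with its neighbour SAMD9. SAMD9L had 9, 8.37, 9.75 and 9.86 CPM with QKI shRNA and 12.4, 12.7, 12.9 and 12.1 CPM with NTC shRNA, with every QKI shRNA library below every control (log2 fold change -0.44, SE 0.06, adjusted p = 0.000306, edgeR). SAMD9 averaged 16 ± 0.817 CPM with QKI shRNA and 18.6 ± 0.526 CPM with NTC shRNA (log2 fold change -0.21, adjusted p = 0.00674, edgeR). LGALS3BP, a secreted glycoprotein that binds galectins, had the largest log2 rise of the 43 members tested, at 0.66, 0.873, 0.815 and 0.664 CPM with QKI shRNA and 0.5, 0.385, 0.47 and 0.504 CPM with NTC shRNA. All QKI shRNA libraries were above all controls (log2 fold change 0.70, SE 0.14, adjusted p = 0.00464, edgeR), at levels under 1 CPM throughout.

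**Figure D2:**
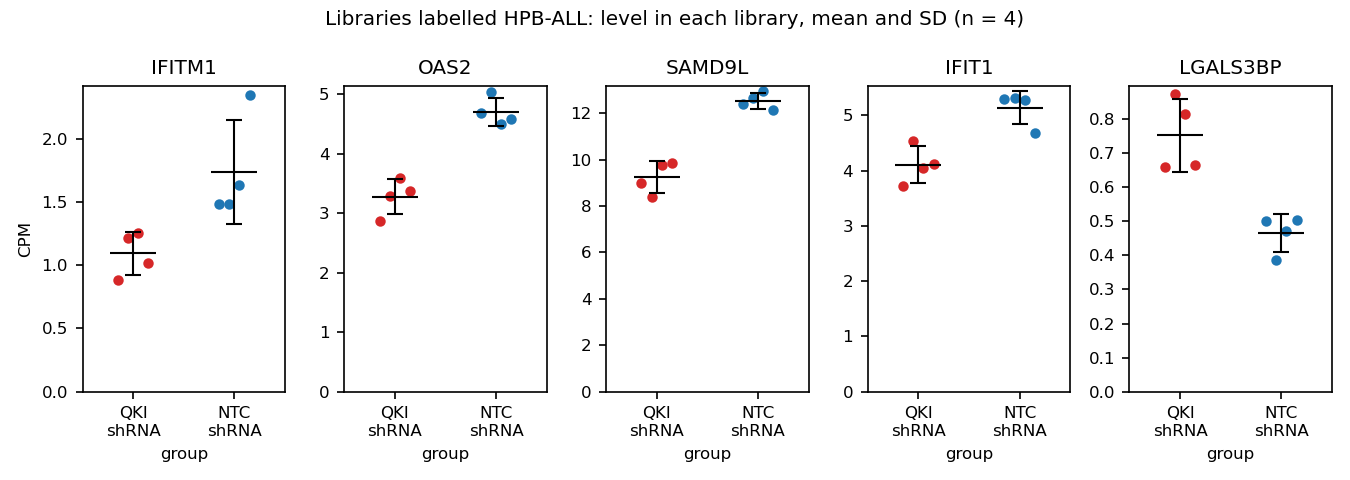
CPM of the 5 members called with a log2 fold change beyond 0.3 in the libraries labelled HPB-ALL, QKI shRNA left and NTC shRNA right in each panel; points are libraries, bars the mean and SD of 4. IFITM1, OAS2, SAMD9L and IFIT1 lie lower with QKI shRNA and LGALS3BP higher, without overlap.

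The ISG15 tagging pathway split. HERC5, the ligase that attaches ISG15 to new proteins, rose to 25.5 ± 0.695 CPM with QKI shRNA, against 21.7 ± 1.03 CPM with NTC shRNA (log2 fold change 0.23, adjusted p = 0.00301, edgeR), and its relative HERC6 also rose (log2 fold change 0.21, adjusted p = 0.0308). USP18, the protease that removes ISG15 and restrains the interferon receptor, fell to 7.93 ± 0.512 CPM, against 9.67 ± 0.672 CPM with NTC shRNA (log2 fold change -0.29, adjusted p = 0.00768). ISG15 itself averaged 5.89 ± 0.258 CPM with QKI shRNA and 6.18 ± 0.433 CPM with NTC shRNA and its conjugating enzyme UBE2L6 had a log2 fold change of -0.14; neither was called. Smaller falls were called in IFI16 (log2 fold change -0.22, adjusted p = 0.00352), in RSAD2, the enzyme viperin that makes a chain-terminating nucleotide (log2 fold change -0.15, adjusted p = 0.0313), and in EIF2AK2, the double-stranded RNA kinase that blocks translation (log2 fold change -0.11, adjusted p = 0.0365). Smaller rises were called in IRF1, a transcription factor of the response (log2 fold change 0.16, adjusted p = 0.0354), and in IFI35, whose libraries overlapped (log2 fold change 0.24, adjusted p = 0.0315). STAT2, IRF7 and IRF9, the other transcription factors, the RNA sensors IFIH1 and DHX58, the GTPases MX1 and MX2, PARP9 and PARP14, and PSMB8 and PSMB9 were not called. Neither were ISG20, CMPK2, TRIM22, SP100, XAF1, IFI6 and IFI27.

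Of the 15 called members, 10 kept their call whichever library was left out. IRF1, IFI35, RSAD2, HERC6 and EIF2AK2 lost it without at least 1 library. Members called higher then numbered as few as 3 (without NTC shRNA replicate 1, NTC shRNA replicate 3 or QKI shRNA replicate 4), against 6 with all libraries. The motif was present in 3 of 6 members that rose, in 5 of 7 that fell and have a window, and in 13 of 21 uncalled members with a window, so members of both directions held it.

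The rest of the pathway was followed in 121 further genes, of which 89 were tested in the libraries labelled HPB-ALL. With QKI shRNA 22 rose (24.7%, against 12.8% of all genes) and 7 fell (7.87%, against 10.4%), with a median log2 fold change of 0.04, against -0.01 over all genes. By list, 1 of 5 receptor genes rose and 2 fell, 3 of 13 JAK-STAT genes rose and 0 fell, 2 of 16 sensors and adaptors rose and 1 fell, 2 of 7 other interferon regulatory factors rose and 0 fell, and 14 of 51 other interferon-stimulated genes rose and 4 fell. The 6 of smallest p were taken as examples. IKBKE, a kinase that activates IRF3, averaged 42.9 CPM in the QKI shRNA libraries and 34.3 CPM in the NTC shRNA libraries (log2 fold change 0.32, adjusted p = 0.00018), and APOL6, an apolipoprotein L family member, averaged 114 CPM in the QKI shRNA libraries and 135 CPM in the NTC shRNA libraries (log2 fold change -0.24, adjusted p = 0.000911), both in edgeR. IFNAR2, a chain of the type I receptor, averaged 17.8 CPM in the QKI shRNA libraries and 21.9 CPM in the NTC shRNA libraries (log2 fold change -0.29, adjusted p = 0.00137). GBP3, a guanylate-binding protein, averaged 2.04 CPM in the QKI shRNA libraries and 1.38 CPM in the NTC shRNA libraries (log2 fold change 0.56, adjusted p = 0.00136). Its relative GBP5 averaged 2.2 CPM in the QKI shRNA libraries and 1.51 CPM in the NTC shRNA libraries (log2 fold change 0.54, adjusted p = 0.00173). TRIM26, a ubiquitin ligase, averaged 44.7 CPM in the QKI shRNA libraries and 38.2 CPM in the NTC shRNA libraries (log2 fold change 0.23, adjusted p = 0.00254).

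In Jurkat, where QKI fell far more, no interferon response gene was called. Of 21296 genes tested, edgeR called QKI alone (0.0047%), and 0 of 46 members; 186 genes and 2 members, IRF9 and IFI6, had an unadjusted p under 0.05, and DESeq2 called 2 genes (0.00549%) and no member. Same-numbered QKI siRNA and NTC siRNA libraries varied together, and with the replicate number as a block the calls were 9 genes (0.0423%; 0.0047% higher and 0.0376% lower) and still 0 members, with 8 members at an unadjusted p under 0.05 (STAT2, IRF1, IRF9, ISG15, ISG20, IFI6, SAMD9 and SAMD9L) and adjusted p values of 0.710 to 0.741, where 1416 of the 21296 genes had an unadjusted p under 0.05. The median log2 fold change was -0.05 over the members and 0.00 over all genes. Of the further pathway genes, 0 of 88 tested were called in edgeR with or without the block, and 0 without it and 8 with it had an unadjusted p under 0.05. The precision was lower than in the other knockdown: the SE of a member's log2 fold change had a median of 0.195, or 0.0962 with the block, against 0.0556 in the libraries labelled HPB-ALL. The SE also differed between members, from 0.103 for IFI16 to 0.820 for IFI44L in Jurkat without the block.

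The uncalled values follow for the members that came nearest. IRF9, the DNA-binding partner of STAT2, had 0.919, 0.795, 0.506 and 0.63 CPM with QKI siRNA and 1.11, 1.32, 0.945 and 1.02 CPM with NTC siRNA, the QKI siRNA libraries all lower (log2 fold change -0.62, SE 0.28; 0.676% of all genes lay lower without overlap). IFI6, a mitochondrial and endoplasmic reticulum protein, had 3.16, 2.58, 1.07 and 1.68 CPM with QKI siRNA and 1.03, 0.804, 1.42 and 1.54 CPM with NTC siRNA, overlapping, and higher with QKI siRNA in 3 of 4 pairs (log2 fold change 0.83, SE 0.36). ISG20, an exonuclease that degrades viral RNA, had 8.08, 8.24, 9.29 and 9.71 CPM with QKI siRNA and 7.61, 7.56, 7.73 and 7.49 CPM with NTC siRNA, the QKI siRNA libraries all higher (log2 fold change 0.22, SE 0.13; 0.39% of all genes lay higher without overlap). The spread followed the replicate number in several members. ISG15, for example, had 17, 19.4, 29.8 and 26.4 CPM with QKI siRNA and 13.8, 10.7, 30.8 and 25.7 CPM with NTC siRNA for replicates 1 to 4, with replicates 1 and 2 low in both groups, and STAT2 had 46.9, 56.5, 33.2 and 34.1 CPM with QKI siRNA and 51.4, 65.1, 40.3 and 41.4 CPM with NTC siRNA, with replicates 1 and 2 high in both.

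**Figure D3:**
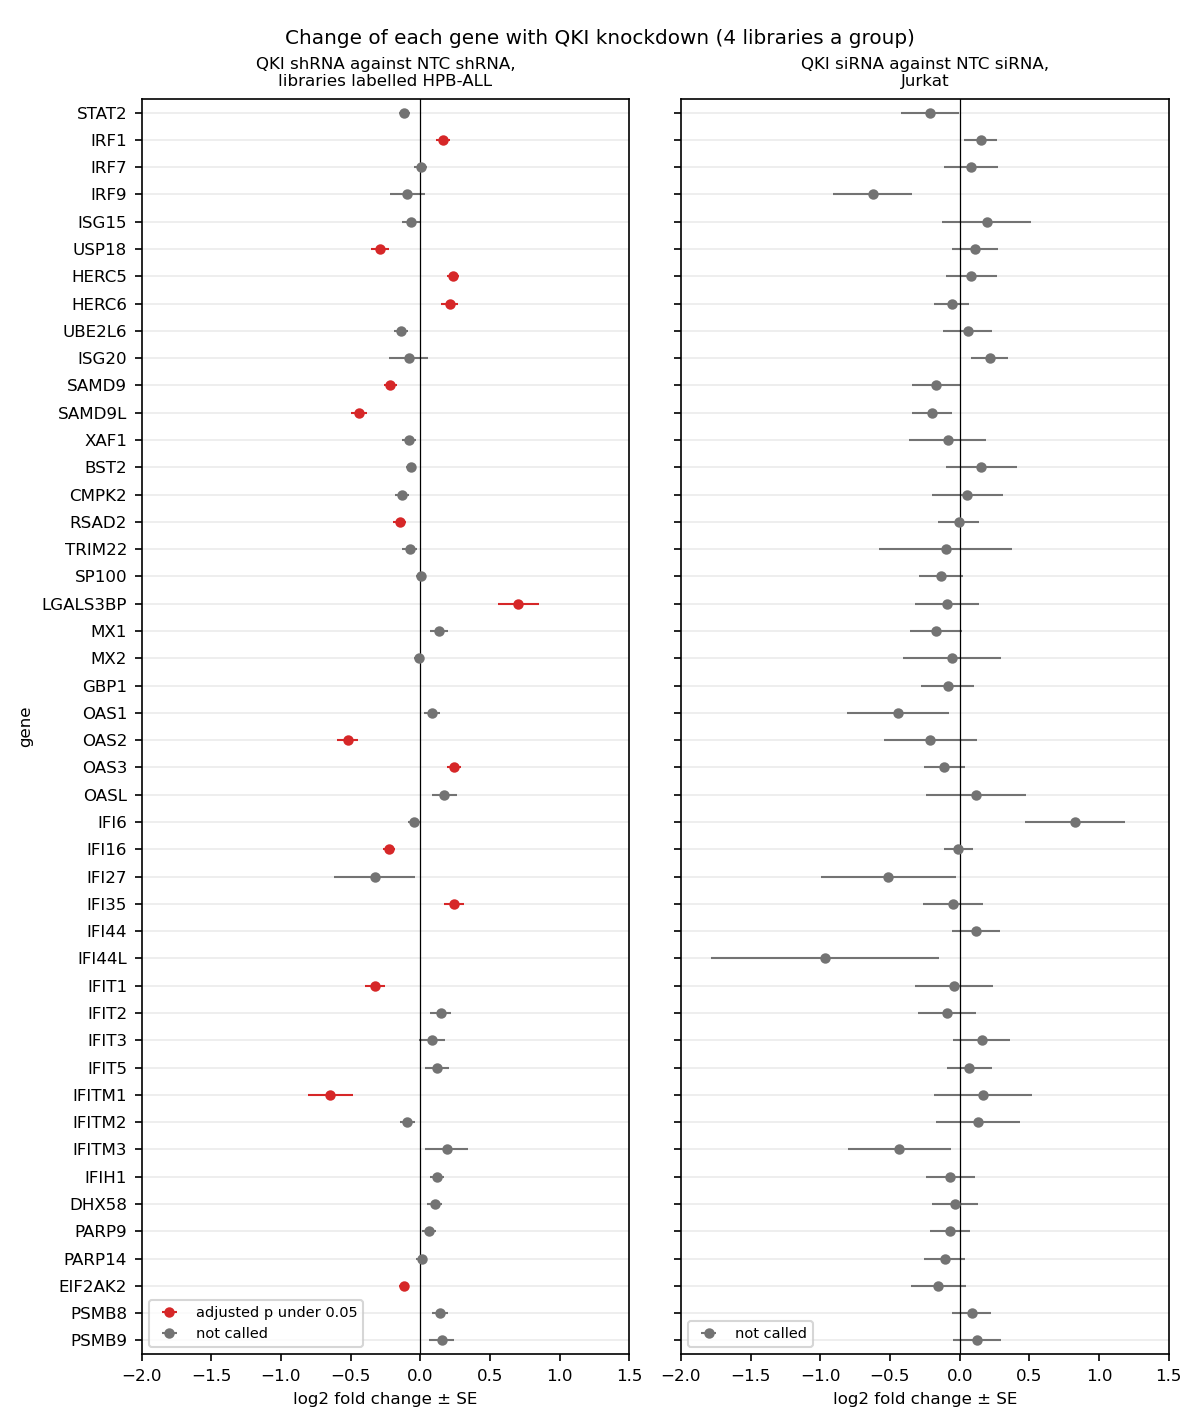
Log2 fold change of QKI depletion over control, with SE, for each interferon response gene tested in the libraries labelled HPB-ALL (left, 43 genes) and in Jurkat (right, 46 genes), red where the adjusted p was under 0.05. Called members appear on both sides of 0 on the left, and there are none on the right, where the SEs are wider.

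Set directly against each other over 15730 genes, the effects of the knockdowns differed for 4 genes (0.0254%) and for 0 of 43 members in edgeR. DESeq2, which called 109 genes, called no member either. In edgeR 6 members had an unadjusted p under 0.05, as did 971 of the 15730 genes. The replicate number was also fitted as a block in both knockdowns, although it pairs the Jurkat libraries alone. With that block, 3.06% of genes and 2 members, LGALS3BP and USP18, were called. Examples of the difference, Jurkat minus the libraries labelled HPB-ALL, were -0.78 for LGALS3BP and 0.86 for IFITM1 on the log2 scale. Without the block, then, the calls made in the libraries labelled HPB-ALL and not in Jurkat were not shown to differ between the cells.

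More genes differed between the untreated lines than in either knockdown. All 46 members varied between the 6 lines in edgeR, as did 98.0% of the 20348 genes tested, so that count is near the background. In 4 of the lines replicate 4 stood apart: it held the highest or lowest value of its line for 34 of 46 members in LOUCY, 36 in HPB-ALL, 40 in TALL-1 and 39 in DND-41, where an even spread over 4 libraries would give 23. The other libraries of those lines held 9 to 29. In KARPAS-45 the libraries were alike, with 21 of 44 in replicate 4 and 21 to 23 in the others, and in ALL-SIL replicate 3 (32 of 45) came before replicate 4 (29). Each line was next set against the mean of the other 5. In ALL-SIL 38 members were higher (82.6%, against 33.8% of all genes) and 4 lower (8.7%, against 25.4%). In DND-41 34 were higher (73.9%, against 34.4%) and 2 lower (4.35%, against 23.3%). In KARPAS-45 6 were higher (13.0%, against 39.0%) and 31 lower (67.4%, against 34.2%). LOUCY had 22 higher (47.8%, against 37.3%) and 12 lower (26.1%, against 28.5%), HPB-ALL 20 higher (43.5%, against 39.6%) and 14 lower (30.4%, against 23.4%), and TALL-1 18 higher (39.1%, against 32.9%) and 20 lower (43.5%, against 24.4%).

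The median log2 difference over the members was 1.11 in DND-41, 0.80 in ALL-SIL, 0.32 in LOUCY, 0.09 in HPB-ALL, -0.23 in TALL-1 and -1.55 in KARPAS-45, with all-gene medians of 0.03, -0.01, 0.03, 0.15, 0.00 and -0.07 in the same order of lines. These contrasts share libraries: the low values of KARPAS-45 lie in the mean against which each other line is set. LOUCY and KARPAS-45, the lines with least QKI (0 and 6.71 CPM, against 88.0 to 162 CPM in the other 4), had medians of 0.32 and -1.55. Any link with QKI was not tested. For 27 members the highest line was called different from the next one and for 19 it was not. Over all genes and all 15 pairs of lines 65.3% of tests were called, a share that takes in distant pairs as well and is no background for neighbouring lines. Without replicate 4 of all 6 lines, the members called higher and lower numbered 37 and 4 in ALL-SIL, 35 and 2 in DND-41, 8 and 32 in KARPAS-45, 24 and 12 in LOUCY, 17 and 19 in HPB-ALL, and 18 and 22 in TALL-1. No all-gene share is given for that fit, so these counts are not set against a background. DND-41 held the highest mean for 16 members and KARPAS-45 the lowest for 22.

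**Figure D4:**
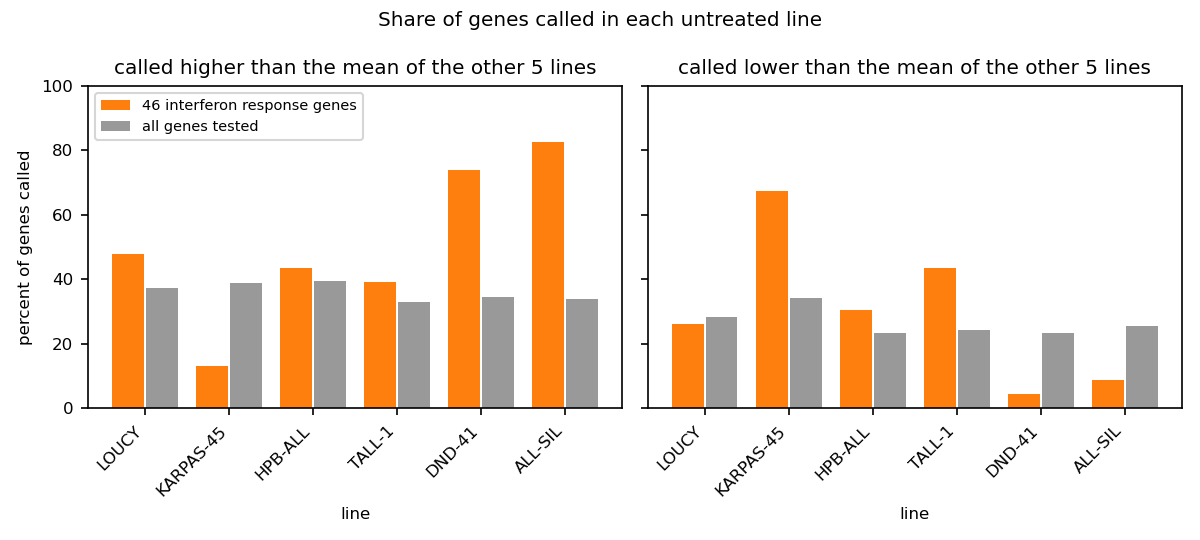
Percent of the 46 interferon response genes, and of all 20348 genes tested, called higher (left) and lower (right) in each untreated line than the mean of the other 5 (edgeR, adjusted p under 0.05). The members exceed all genes most in ALL-SIL and DND-41 for higher and in KARPAS-45 for lower.

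By role, the transcription factors IRF1 and IRF9 were higher in ALL-SIL, DND-41, TALL-1 and HPB-ALL and lower in LOUCY and KARPAS-45, whereas STAT2 was the member of narrowest range (0.90 on the log2 scale between the highest and lowest line means). All 3 IFITM genes were higher in DND-41 and ALL-SIL and lower in KARPAS-45. The 4 IFIT genes showed the same pattern in those 3 lines, as did the oligoadenylate synthetases OAS1, OAS2 and OAS3. Of these, the call of IFIT2 in ALL-SIL was lost with RLE scaling, with DESeq2 and without both unnumbered LOUCY columns. It was also lost without most single libraries, each ALL-SIL library among them, always in the same direction. The call of IRF9 in HPB-ALL was lost without replicate 4 of HPB-ALL, without replicate 4 of all lines and without both unnumbered LOUCY columns, and its call in TALL-1 without replicate 4 of TALL-1. The call of OAS1 in TALL-1 was also lost without that library. PSMB8 was higher in LOUCY and ALL-SIL but lower in DND-41, at 63.6 ± 3.72 CPM in DND-41 and 311 ± 41 CPM in LOUCY. PSMB9, the other immunoproteasome subunit listed, was higher in ALL-SIL (log2 difference 0.30, adjusted p = 0.0261, edgeR), lower in KARPAS-45 (log2 difference -0.74, adjusted p = 6.86e-06, edgeR) and not called in DND-41. Its call in ALL-SIL was lost without replicate 3 of ALL-SIL, without replicate 4 of ALL-SIL and without replicate 4 of all lines. In KARPAS-45, EIF2AK2, PARP9, HERC5, LGALS3BP, MX1 and USP18 ran against the other members. MX1, a GTPase that traps viral nucleocapsids, had 57.4, 56.1, 57.9 and 57.3 CPM there (log2 difference 3.78, adjusted p = 1.13e-17, edgeR), against 0.53 to 1.18 CPM in TALL-1, while its paralog MX2 was lower in KARPAS-45 (log2 difference -0.40, adjusted p = 0.000457, edgeR).

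The 12 members of widest range are given library by library. XAF1, a pro-apoptotic partner of the caspase inhibitor XIAP, had 144, 142, 152 and 154 CPM in DND-41, 89.5, 88.4, 85.7 and 94.2 CPM in TALL-1 and 49.5, 52.4, 37.5 and 47.4 CPM in ALL-SIL. It had 16.4, 17.8, 15.9 and 25.8 CPM in HPB-ALL, 3.43, 3.14, 2.76 and 3.36 CPM in KARPAS-45 and 0.0542, 0, 0 and 0 CPM in LOUCY, 3 reads in all. No 2 of these 6 lines overlapped for XAF1. IFITM2 had 636, 429.8, 487 and 359 CPM in LOUCY, 230.1, 232, 358 and 172 CPM in ALL-SIL and 204, 153, 205 and 109 CPM in DND-41. It had 2.42, 2.13, 2.39 and 2.04 CPM in TALL-1, 0.82, 1.12, 0.611 and 0.749 CPM in HPB-ALL and 0.182, 0.114, 0.23 and 0.123 CPM in KARPAS-45, so 3 lines lay above 100 CPM and 3 below 3 CPM. IFITM1 was high in the same 3, with 513, 513, 531 and 453 CPM in ALL-SIL, 329, 279, 375 and 249 CPM in DND-41 and 269.8, 176, 213 and 268 CPM in LOUCY. It also reached 147, 88.1, 107 and 106 CPM in HPB-ALL and 82.8, 90.3, 67 and 72.8 CPM in TALL-1, and only KARPAS-45 was low among the 6 lines, with 4.27, 3.43, 4.29 and 4.17 CPM.

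Among effectors, TRIM22, a ubiquitin ligase with antiviral activity, had 75, 76.4, 79.8 and 87.1 CPM in DND-41, 67, 61.2, 57.3 and 56.8 CPM in ALL-SIL and 50.2, 50.4, 51.9 and 58.1 CPM in TALL-1. It had 38.5, 32.5, 37 and 60.5 CPM in LOUCY, 2.94, 5.37, 4.79 and 3.69 CPM in HPB-ALL and 0.0759, 0.0571, 0.0288 and 0.0614 CPM in KARPAS-45. ALL-SIL and TALL-1 were not called different for TRIM22 (adjusted p = 0.286, edgeR), and KARPAS-45 was far below the rest. LGALS3BP had 332, 366, 500.2 and 275 CPM in ALL-SIL, 187, 271, 269.7 and 226 CPM in DND-41 and 144, 159, 163 and 135 CPM in KARPAS-45. It had 78.8, 75.4, 93.2 and 79.1 CPM in TALL-1, 51.4, 58.7, 55.8 and 53.7 CPM in HPB-ALL and 0.741, 0.348, 0.453 and 0.74 CPM in LOUCY, the single line under 1 CPM. SAMD9L had 75.2, 75.7, 79.1 and 83.2 CPM in DND-41, 41.4, 31.1, 26.8 and 50.9 CPM in ALL-SIL and 12.6, 16.6, 15.9 and 47.5 CPM in HPB-ALL. It had 13.6, 12.4, 14.5 and 26.2 CPM in LOUCY, 5.82, 6.32, 7.34 and 17.1 CPM in TALL-1 and 0.182, 0.286, 0.302 and 0.23 CPM in KARPAS-45. The last value of HPB-ALL, LOUCY and TALL-1, replicate 4, was well above the other 3, and ALL-SIL and HPB-ALL were not called different (adjusted p = 0.0823, edgeR).

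Among RNA sensing and signal restraint, IFIH1, the sensor of long double-stranded RNA, had 15.5, 19.8, 16.5 and 17.2 CPM in HPB-ALL, 14.7, 13.5, 14.2 and 18.9 CPM in LOUCY and 10.1, 12.8, 14.9 and 14.7 CPM in DND-41. It had 8.63, 7.75, 9.05 and 10.3 CPM in ALL-SIL, 3.6, 4.49, 3.75 and 4.91 CPM in TALL-1 and a single read over the 4 libraries of KARPAS-45, at 0, 0, 0.0144 and 0 CPM. HPB-ALL and LOUCY (adjusted p = 0.352) and LOUCY and DND-41 (adjusted p = 0.238) were not called different for IFIH1 in edgeR. OAS1 had 7.99, 7.65, 8.37 and 6.15 CPM in DND-41, 2.69, 1.91, 1.53 and 1.24 CPM in ALL-SIL and 0.962, 1.12, 0.927 and 1.02 CPM in HPB-ALL. It had 0.483, 0.493, 0.92 and 2.08 CPM in TALL-1, 0.56, 0.368, 0.834 and 0.565 CPM in LOUCY and no read in KARPAS-45. USP18 was highest in KARPAS-45 among the 6 lines, with 99.9, 95.1, 105 and 74.8 CPM there and 25, 25.8, 23.8 and 16.7 CPM in LOUCY. It had 11.3, 11.1, 11.5 and 8.64 CPM in HPB-ALL, 8.45, 8.08, 7.19 and 4.73 CPM in DND-41, 4.33, 3.87, 4.3 and 3.8 CPM in TALL-1 and 0.296, 0.378, 0.584 and 0.631 CPM in ALL-SIL. KARPAS-45 also had the fewest high members, while LOUCY, next in USP18, had 22 members higher and 12 lower. Any link was not tested.

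Among genes named for induction by interferon, IFI44 had 40.5, 31.4, 30.9 and 25.6 CPM in DND-41, 28.5, 29.3, 28.5 and 27 CPM in TALL-1 and 13.4, 13.3, 13.5 and 13.4 CPM in LOUCY. It had 12.6, 11, 12.1 and 8.89 CPM in HPB-ALL, 9.08, 8.07, 11 and 9.34 CPM in ALL-SIL and 0.0456, 0.0428, 0.0432 and 0.0767 CPM in KARPAS-45, and DND-41 and TALL-1 were not called different (adjusted p = 0.234, edgeR). IFI44L, its neighbour on chromosome 1, had 6.15, 4.97, 4.63 and 4.59 CPM in DND-41, 0.296, 0.352, 0.319 and 1.07 CPM in TALL-1, 0.356, 0.281, 0.572 and 0.602 CPM in HPB-ALL, 0.145, 0, 0.181 and 0.0584 CPM in LOUCY and no read in KARPAS-45 or ALL-SIL. GBP1, a guanylate-binding protein that attacks the membranes of intracellular pathogens, had 37.4, 43, 47.7 and 32.8 CPM in DND-41 and 18.3, 18.4, 32.6 and 19.3 CPM in ALL-SIL. It had 5.15, 10.3, 8.36 and 3.27 CPM in LOUCY, 5.26, 5.2, 5.68 and 5.75 CPM in HPB-ALL, 0.265, 0.405, 0.708 and 0.873 CPM in TALL-1 and 0.304, 0.328, 0.374 and 0.307 CPM in KARPAS-45. DND-41 and ALL-SIL therefore held the 2 highest GBP1 levels, and DND-41 the highest of IFI44, IFI44L and OAS1 as well.

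**Figure D5:**
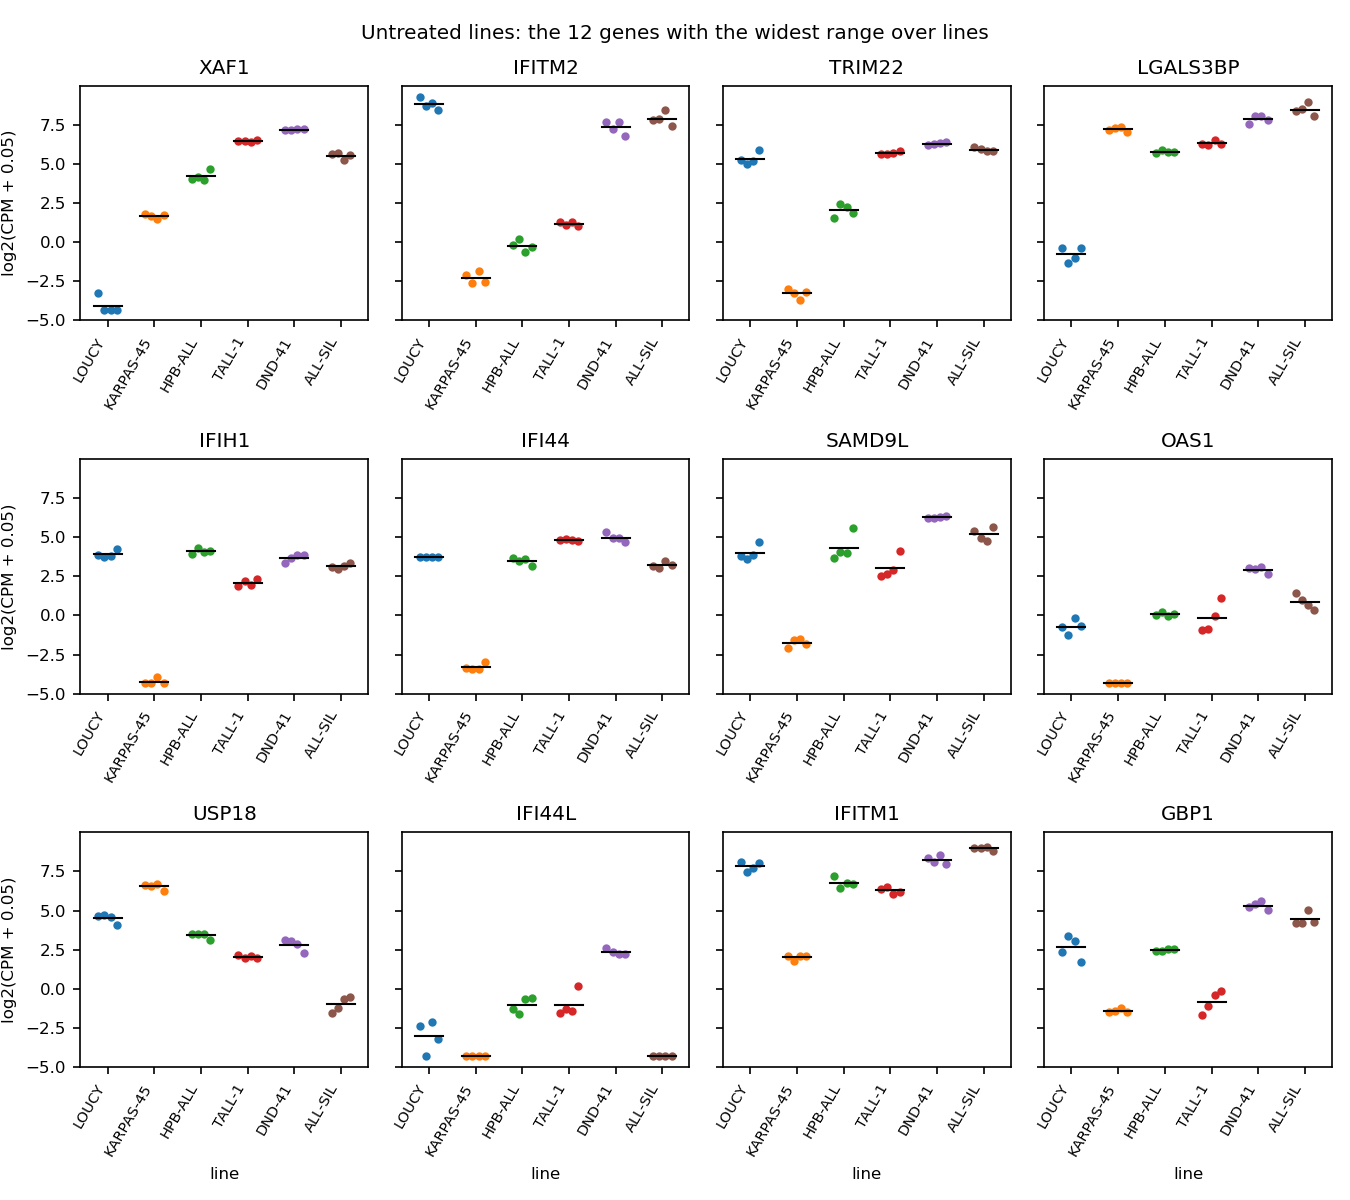
Log2(CPM + 0.05) of the 12 interferon response genes of widest range in the 6 untreated lines; points are libraries and the bar is their mean. KARPAS-45 lies at the bottom for 9 of the 12, for IFI44L together with ALL-SIL, and at the top for USP18, and LOUCY lies at the bottom for XAF1 and LGALS3BP.

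The wider pathway was set beside the same all-gene shares. Of 92 further genes tested, 54 were higher (58.7%, against 33.8% of all genes) and 14 lower (15.2%, against 25.4%) in ALL-SIL. In KARPAS-45 28 were higher (30.4%, against 39.0%) and 45 lower (48.9%, against 34.2%). In DND-41 40 were higher (43.5%, against 34.4%) and 23 lower (25.0%, against 23.3%), the second share close to that of all genes. LOUCY had 38 higher (41.3%, against 37.3%) and 32 lower (34.8%, against 28.5%). HPB-ALL had 32 higher (34.8%, against 39.6%) and 34 lower (37.0%, against 23.4%), and TALL-1 30 higher (32.6%, against 32.9%) and 37 lower (40.2%, against 24.4%).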

How the data were processed

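Read counts per gene were deposited by the authors in 3 tables, in whole numbers and not normalized. Per the submitters' processing notes, Trimmomatic 0.39, STAR 2.7.11b and GRCh38 were used; the sources used here do not give the counting tool, strand setting or annotation. Per the labels, the libraries labelled HPB-ALL came from a stranded messenger RNA kit. Totals that name no gene, 13% to 15.1% of the reads of that table, were left out. Gene positions and lengths came from GENCODE 29, promoters from RefSeq. Precision depends on the counts per library given in the text and on the spread between libraries.

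Tests used the quasi-likelihood model of edgeR 4.0.16 (R 4.3.3; low counts removed by filterByExpr, TMM scaling, Benjamini-Hochberg adjustment over all genes tested, threshold 0.05). Each knockdown was fitted on its 8 libraries, the difference of knockdown effects on 16, and the lines on 24. CPM used TMM factors, and an SE is the log2 fold change over the square root of F. Tests were first tested on simulated data. Members, lists and rules were chosen with earlier results of these data known. Values of every library are given for members called in a knockdown with a log2 fold change of at least 0.3 either way and for the 12 of widest range over lines; up to 6 further pathway genes are named. Members near a call in Jurkat, MX1, PSMB8 and myeloid genes were named after their values were seen.

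Replicate numbers pair the Jurkat libraries: same-numbered libraries deviated together (correlations 0.337 to 0.556), and 7 of 8 correlated best with their own number, for a reason the labels leave unsaid. They do not pair the others. LOUCY has 2 columns without a number. Every replicate pair differed beyond sampling noise (chi-square over degrees of freedom 12.7 to 348). Alternatives were RLE scaling, no filter, DESeq2 1.42.0, the replicate block and each library left out. Leaving out both unnumbered LOUCY columns, or replicate 4 of all lines, was chosen after seeing the data.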

Additional observations from a re-analysis of the deposited data

Results flagged for a closer look

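Of 77 groups of 4 libraries checked over the members given library by library, 9 held a library far from the other 3; chance gives about 1 in 20 groups. In the knockdown, the NTC shRNA libraries labelled HPB-ALL had IFIT1 at 4.69 CPM in replicate 4, against 5.27 to 5.32 CPM in the others. In 6 cases replicate 4 of an untreated line stood apart. SAMD9L was high in 3 of these, with 47.5 CPM in replicate 4 of HPB-ALL, against 12.6 to 16.6 CPM in its other libraries, 26.2 CPM in replicate 4 of LOUCY, against 12.4 to 14.5 CPM in its other libraries, and 17.1 CPM in replicate 4 of TALL-1, against 5.82 to 7.34 CPM in its other libraries. IFI44L had 1.07 CPM in replicate 4 of TALL-1, against 0.296 to 0.352 CPM in its other libraries. IFI44 had 0.0767 CPM in replicate 4 of KARPAS-45, against 0.0428 to 0.0456 CPM in its other libraries. A count of 0 allows up to 0.0460 CPM per library in KARPAS-45, so these IFI44 values rest on few reads. USP18 was low, with 8.64 CPM in replicate 4 of HPB-ALL, against 11.1 to 11.5 CPM in its other libraries. Elsewhere, IFITM1 had 3.43 CPM in replicate 2 of KARPAS-45, against 4.17 to 4.29 CPM in its other libraries, and GBP1 had 32.6 CPM in replicate 3 of ALL-SIL, against 18.3 to 19.3 CPM in its other libraries.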

How the results depend on the processing

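In the libraries labelled HPB-ALL, the 15 called members gave 180 values under the alternatives: 144 stayed called in the same direction, 36 were no longer called and 0 turned round. Leaving out 1 library gave 3 to 5 members higher and 7 to 9 lower. Replicate numbers do not pair these libraries; with them as a replicate block 4 members were higher and 7 lower (9.51% and 7.53% of all genes), IRF1, RSAD2, HERC6 and EIF2AK2 losing their call, and with no filter RSAD2 and EIF2AK2 lost it. Of the 89 further pathway genes, 17 were higher and 7 lower with the block. In Jurkat no alternative called a member. The difference between knockdown effects called 0 members, but 2 with the replicate block, where all-gene calls were 481 against 4: LGALS3BP (-0.79, adjusted p = 0.0285) and USP18 (0.40, adjusted p = 0.044), on the log2 scale in edgeR; the cause was not tested. In the lines, counts of members higher and lower stayed within 1.5 times under every alternative run, and no called direction turned round. With each library left out in turn, ALL-SIL had 32 to 37 higher, DND-41 32 to 35 and KARPAS-45 6 to 7, with 30 to 33 lower in KARPAS-45. All-gene shares are not given for fits with a library left out, in the lines or in the knockdowns. Low members such as LGALS3BP and IFITM1 in the libraries labelled HPB-ALL, near 1 CPM, have the widest errors.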
